A study of Mus musculus with 78 samples.

Results

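The genes described here are those of the monocarboxylate transporters Slc16a1, Slc16a3, Slc16a6, Slc16a7 and Slc16a9 and of the chaperones Bsg and Emb. They are 7 of the 55367 gene symbols in the count tables, were chosen by name, and each has reads in both tables. Some monocarboxylate transporters, among them those of Slc16a1, Slc16a3 and Slc16a7, move small acids such as lactate, pyruvate, ketone bodies and acetate across the cell membrane together with a proton. Several of them reach the membrane only when bound to an immunoglobulin-like chaperone, basigin (Bsg) or embigin (Emb). In the brain they are known for passing fuel from blood and glia to neurons, and acetate made from ethanol by the liver enters the brain as such a small acid.

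The samples were 78 poly(A) RNA libraries from 7 brain regions of 12 C57BL/6J-background mice, 3 for each sex and genotype. KO mice carried a constitutive CRISPR deletion in Acss2, whose product turns acetate into acetyl-CoA, and WT mice did not. The deletion is not limited to a cell type, and its carriers had been backcrossed for 3 generations. All of them, adult and housed singly, had drunk 15% ethanol in drinking-in-the-dark sessions of 2 h on days 1 to 3 and 4 h on day 4, a model of binge-like intake, offered beside water in the first week and without water in the following week. Every animal of both genotypes thus had ethanol, and an ethanol-free group was not analysed here. The mouse numbers were 1, 2 and 10 (KO males), 3, 12 and 13 (WT males), 4, 5 and 6 (KO females), and 11, 23 and 24 (WT females). Of the 28 groups by sex, genotype and region, 23 held 3 libraries, 4 held 2 and 1 held 1.

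Levels are CPM, a gene's share of the total count of its library, scaled by 1e6. The 47 libraries of amygdala, dorsal hippocampus, dorsal striatum and ventral striatum had totals from 4454420 to 14487778 counts, and the 31 libraries of cortex, prefrontal cortex and ventral hippocampus had totals from 629635 to 1228828. They are called the deeper and the shallower set, and 3 counts, taken as the floor of detection, correspond to 0.207 to 0.673 CPM in the former and to 2.44 to 4.76 CPM in the latter. Depth, sample numbering and region cannot be told apart between the sets, so regions were tested only within a set. Acss2 lay between 0.971 and 13.96 CPM in the 40 KO libraries and between 35.9 and 73.8 CPM in the 38 WT libraries. The library labelled female WT mouse 23, prefrontal cortex, went against its label in sex-linked genes; leaving it out changed no call on the genes described here.

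Other libraries stood apart by tissue. In 9 libraries the 8 choroid plexus markers (Ttr, Folr1, Kl, Clic6, Kcnj13, Otx2, Slc4a5 and Aqp1) summed to over 1000 CPM, with the highest value, 9171 CPM, in the amygdala of female KO mouse 5. These libraries were the amygdala of female KO mice 4 and 5, the cortex of female KO mouse 4, the dorsal hippocampus of male KO mouse 1, male WT mouse 3 and female WT mouse 23, and the dorsal striatum of female KO mice 5 and 6 and male WT mouse 13. In 5 libraries the sum of striatal projection neuron markers against that of cortical excitatory markers went against the region label: the dorsal striatum of male KO mouse 10 and female WT mouse 23, the ventral striatum of male KO mouse 10, the prefrontal cortex of female KO mouse 5 and the ventral hippocampus of female KO mouse 6. Differences between groups and correlations with marker sums that rest on these libraries are given with and without them. The rule for the 5 used only the striatal and cortical sums and left out the amygdala, so it need not find every such library. In the amygdala of female KO mouse 6 the striatal sum was 2047 CPM and the cortical sum 1070 CPM. The 6 hippocampal field markers summed to 100.8 CPM in the ventral hippocampus of male KO mouse 10 (region median 464.7). The striatal sum was 384 CPM in the ventral striatum of male WT mouse 13 (region median 3934). Since the samples were pieces of tissue, more cells of a type and more RNA per cell cannot be told apart in any value below.

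Per kilobase of exon, the scale on which different genes can be compared, Bsg was the most abundant of the 7 genes in every region, at a mean of 159 CPM per kb in the ventral striatum and 228 in the amygdala. Slc16a1 came next in every region, at 4.66 to 7.93 CPM per kb. Emb, Slc16a7 and Slc16a6 followed, each between 1.78 and 4.69 CPM per kb, and their order changed from region to region. Slc16a9 lay between 0.564 and 1.30 CPM per kb and Slc16a3 between 0.199 and 0.663.

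**Figure D1:**
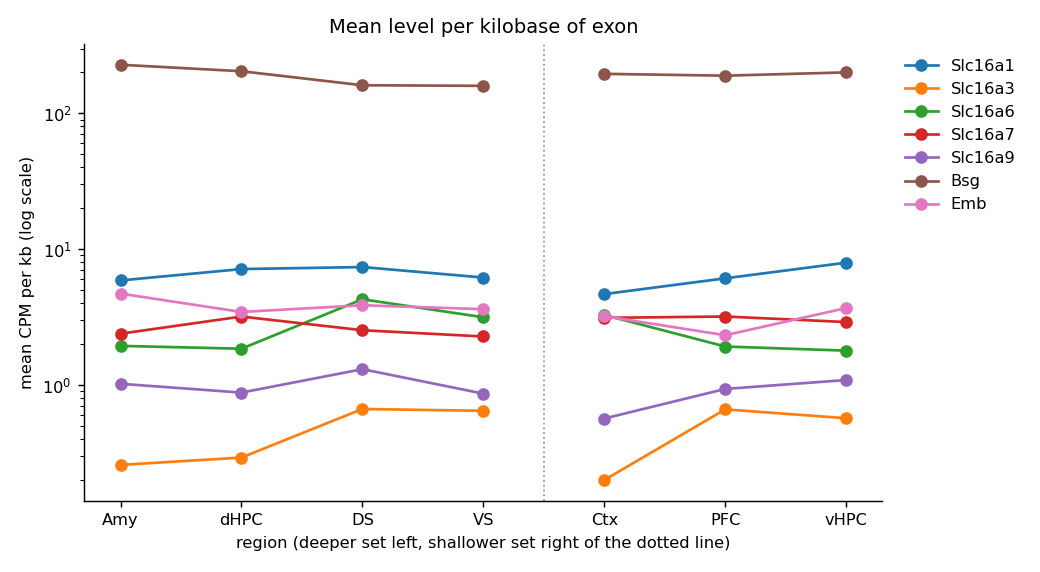
Mean CPM per kilobase of exon of the 7 genes (log scale) in amygdala (Amy), dorsal hippocampus (dHPC), dorsal striatum (DS), ventral striatum (VS), cortex (Ctx), prefrontal cortex (PFC) and ventral hippocampus (vHPC); the dotted line separates the deeper from the shallower set. Bsg lies highest and Slc16a3 lowest in all 7 regions.

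Regions differed for 5 of the 7 genes in the deeper set. With edgeR's quasi-likelihood test and Benjamini-Hochberg adjustment at 0.05, 18 of 42 tests of a gene in a pair of regions passed, 11 with the first region of the pair higher and 7 with it lower. Slc16a3 and Slc16a6 were higher in both parts of the striatum than in the amygdala and the dorsal hippocampus. Bsg had the opposite pattern, and Slc16a7 was highest in the dorsal hippocampus. Differences between these regions were common among all genes. For dorsal hippocampus over amygdala, 2 of the 7 genes passed, against 39.1% of all 14593 genes tested. The counts were 4 of 7 for dorsal striatum over amygdala (55.6% of all genes), 3 of 7 for ventral striatum over amygdala (46.9%), 4 of 7 for dorsal striatum over dorsal hippocampus (54.7%), 5 of 7 for ventral striatum over dorsal hippocampus (53.9%) and 0 of 7 for ventral over dorsal striatum (13.7%). In that last pair 3 of the 7 genes had an unadjusted edgeR p under 0.05, as did 28.6% of all genes, and DESeq2 called 1, Slc16a6, beside 15.3% of all genes. The share of the 7 genes that passed is thus near that of all genes in most pairs and is not particular to them.

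**Figure D2:**
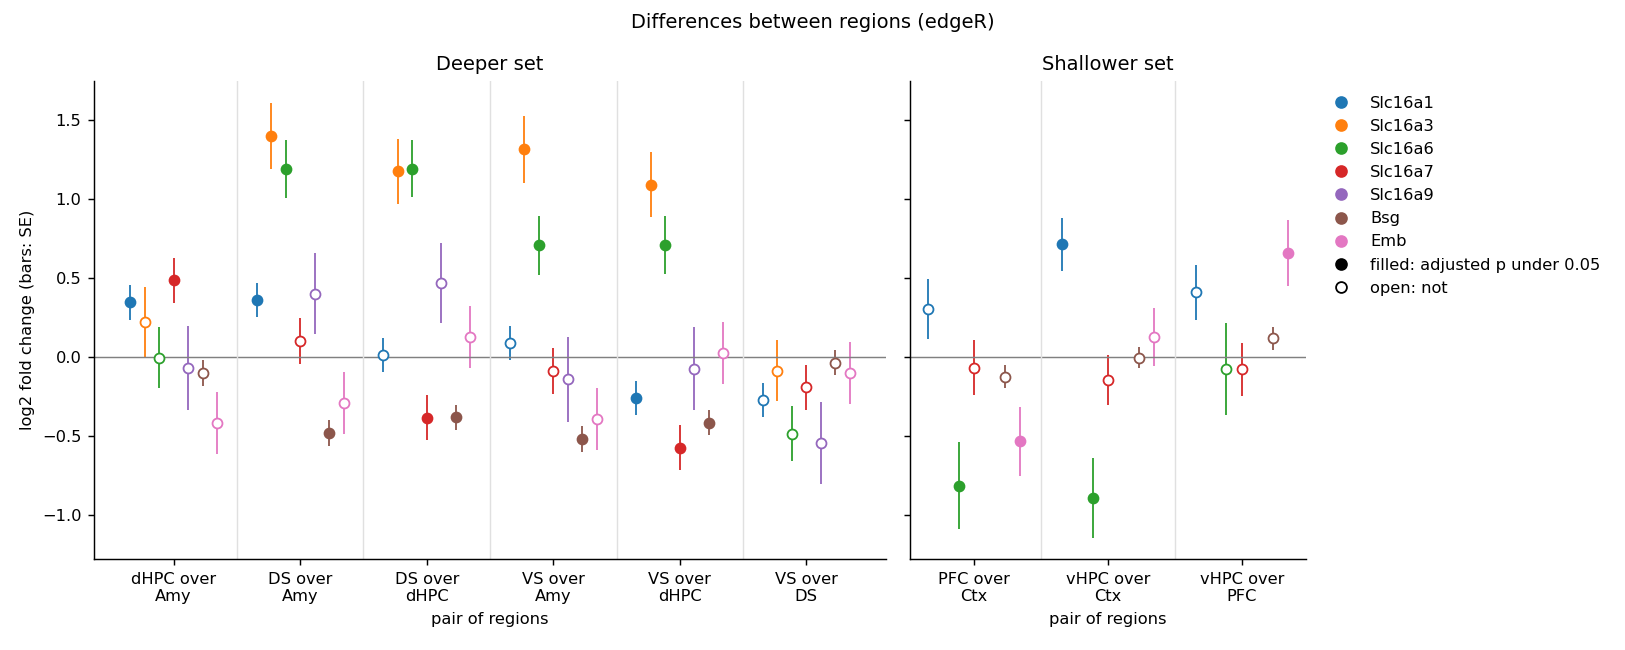
Log2 fold change of each gene between the regions of a pair, with its standard error (SE), from the edgeR fits of the deeper (left) and the shallower set (right). Filled points passed the 0.05 threshold; Slc16a3 and Slc16a6 stand above 0 in the 4 pairs of a striatal over a non-striatal region, and Bsg stands below 0 in the same pairs.

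Slc16a1 encodes MCT1, known from endothelium, astrocytes and oligodendrocytes, where it carries lactate, ketone bodies and acetate. The gene lies on chromosome 3, positions 104638668 to 104658462 of GRCm38, plus strand, with 4426 bases of exon in GENCODE M21. Its promoter, the 250 bases before the RefSeq start, is shown, as is that of Slc16a3 further on, because these transporters are the lactate carriers of glia and vessels whose transcript levels differed between regions; it lies at chr3:104638414-104638663 on the plus strand of GRCm38.p6, and capitals mark the letters ACGTG read on either strand, the core of the hypoxia response element.
Slc16a1: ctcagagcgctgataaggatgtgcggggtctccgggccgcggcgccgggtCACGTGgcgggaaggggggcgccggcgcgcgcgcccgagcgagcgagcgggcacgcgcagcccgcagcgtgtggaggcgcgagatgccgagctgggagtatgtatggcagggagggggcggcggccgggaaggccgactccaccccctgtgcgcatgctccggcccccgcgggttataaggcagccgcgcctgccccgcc
The 6 capitals are a palindrome in which the match on the plus strand and that on the minus strand overlap. Of 32851 RefSeq promoters of the same length, 16.6% hold ACGTG on either strand. That share is not one for promoters of like base content. The letters include CG, and the 250 bases of Slc16a1 and Slc16a3 hold 37 and 29 CG pairs at 76.4% and 73.6% GC, beside medians of 6 and 52.4% over all promoters.

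Slc16a1 levels in the dorsal striatum ranged from 22.7 over a median of 32.3 to 47.8 CPM in 12 libraries, and in the dorsal hippocampus from 18.2 over 31.8 to 41.7 CPM in 12. The ventral striatum ranged from 22.1 over 27.1 to 35.8 CPM (12 libraries) and the amygdala from 15.7 over 25.1 to 42.5 CPM (11 libraries). The ranges of all 4 regions overlapped. The largest difference that passed within the deeper set was dorsal striatum over amygdala, a log2 fold change of 0.36 (SE 0.11, edgeR adjusted p = 0.00458), or 1.29-fold. Dorsal hippocampus over amygdala gave 0.35 (SE 0.11, edgeR adjusted p = 0.00991). Without mouse 3 the latter call was lost (adjusted p = 0.0538). The dorsal striatum and the dorsal hippocampus, neighbours in the order of means, did not differ by this test (0.02, SE 0.11). Ventral striatum over dorsal hippocampus was called at -0.26 (edgeR adjusted p = 0.0398), but the call was lost in 9 alternatives, with adjusted p-values up to 0.155 on column totals. The ventral striatum was below the dorsal striatum by -0.27 (edgeR adjusted p = 0.0813) with all libraries and by -0.34 (edgeR adjusted p = 0.0289) without those whose region markers went against the label, where 23.8% of all genes were called. In the shallower set, where a library held 6 to 58 reads of the gene, means were 20.6 ± 7.04 CPM in the cortex (SD, n = 11), 26.9 ± 5.77 in the prefrontal cortex (n = 8) and 35.1 ± 9.10 in the ventral hippocampus (n = 12). Ventral hippocampus over cortex was called at 0.71 (SE 0.17, edgeR adjusted p = 0.00114), 1.64-fold, and the other pairs were not.

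Slc16a3 encodes MCT4, the low-affinity lactate exporter of glycolytic cells such as astrocytes and a textbook target of the hypoxia-inducible factor. It lies on chromosome 11, positions 120948480 to 120960868, plus strand, with 5318 bases of exon. The stretch shown, chr11:120948817-120949052 on the plus strand of GRCm38.p6, is its RefSeq promoter without the last 14 bases, which GENCODE M21 places in an exon. It lies inside the GENCODE gene span given above, so it is not upstream of every annotated transcript. Capitals again mark ACGTG on either strand.
Slc16a3: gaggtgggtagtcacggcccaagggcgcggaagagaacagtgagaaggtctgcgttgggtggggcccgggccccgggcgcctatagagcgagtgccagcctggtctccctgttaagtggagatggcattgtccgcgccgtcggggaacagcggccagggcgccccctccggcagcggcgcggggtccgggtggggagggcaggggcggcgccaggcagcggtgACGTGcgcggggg
The match starts 27 bases before the RefSeq start, and a further match starts 14 bases before it, in the bases left out. The table holds Slc16a9 and Emb as well, with no ACGTG on either strand in their 250 bases, and these windows are not printed since they overlap annotated exons.

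Slc16a3 was the member with the largest difference between regions. In the amygdala its 11 libraries ran from 0.407 over a median of 1.52 to 2.14 CPM, 3 to 17 reads, and in the dorsal striatum its 12 libraries ran from 2.19 over 3.30 to 5.04 CPM, 14 to 50 reads. These ranges did not overlap. Dorsal striatum over amygdala gave a log2 fold change of 1.40 (SE 0.21, edgeR adjusted p = 3.7e-07), 2.64-fold. The ventral striatum ran from 1.72 over 3.32 to 5.55 CPM and was 2.49-fold above the amygdala (1.32, SE 0.21, edgeR adjusted p = 2.5e-06). Both parts of the striatum also exceeded the dorsal hippocampus, which ran from 0.813 over 1.46 to 2.88 CPM, by 1.18 (dorsal) and 1.09 (ventral) on the log2 scale. The dorsal and ventral striatum did not differ by this test (-0.08, SE 0.19), and neither did the dorsal hippocampus and the amygdala (0.22, SE 0.22). At the lower depth of the other 3 regions the gene was at or under the floor in 11 of 11 cortex, 4 of 8 prefrontal cortex and 8 of 12 ventral hippocampus libraries and did not pass the filter on low counts, so no difference was detectable at this depth.

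Slc16a6 encodes MCT7, described as a carrier of ketone bodies in liver. It lies on chromosome 11, positions 109450855 to 109473598, minus strand, with 4883 bases of exon. Amz2 on the opposite strand shares 1052 of these bases and had a mean of 53.2 CPM, so Slc16a6 counts are uncertain: the strand setting of the counting is not given in the sources used here, and reads of the partners cannot be told apart without it. In the dorsal striatum Slc16a6 ranged from 12.9 over a median of 21.2 to 25.8 CPM, and in the dorsal hippocampus from 4.87 over 8.78 to 14.9 CPM, with overlap. Dorsal striatum over dorsal hippocampus gave a log2 fold change of 1.19 (SE 0.18, edgeR adjusted p = 3.6e-07), 2.29-fold, and dorsal striatum over amygdala 1.19 (SE 0.18). The ventral striatum, 10.4 over 15.6 to 24.2 CPM, was 0.71 above each of the amygdala and the dorsal hippocampus on the log2 scale.

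The amygdala had a wide spread for Slc16a6, from 3.53 over 7.78 to 17.7 CPM. The choroid-rich pair there held 16.2 and 17.6 CPM, but the highest value was in a female WT library that was not choroid-rich. The other 9 libraries thus had the same range, from 3.53 to 17.7 CPM. The amygdala mean of 9.44 CPM (n = 11) was 7.78 without that pair. The difference of ventral from dorsal striatum was -0.48 (SE 0.18, edgeR adjusted p = 0.0587) with all libraries. Without those whose region markers went against the label (44 libraries left) it was -0.56 (edgeR adjusted p = 0.029), and 23.8% of all genes were called. The difference was also called without mouse 23 (-0.50, edgeR adjusted p = 0.0362) or mouse 24 (-0.59, edgeR adjusted p = 0.0106). Among the shallower regions the cortex had the highest mean, 15.95 ± 6.89 CPM (SD, n = 11), with 3 to 24 reads a library. Ventral hippocampus over cortex gave -0.89 (SE 0.25, edgeR adjusted p = 0.00679), 1.85-fold lower, and prefrontal cortex over cortex -0.81 (SE 0.27, edgeR adjusted p = 0.0175); the latter was lost with a replicate block by mouse (-0.71, adjusted p = 0.0514).

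Slc16a7 encodes MCT2, the high-affinity transporter of neurons. It lies on chromosome 10, positions 125219270 to 125389465, minus strand, with 11839 bases of exon. The dorsal hippocampus ranged from 20.5 over a median of 38.9 to 49.5 CPM, and the ventral striatum from 20.7 over 24.8 to 40.1 CPM. The ranges overlapped over most of their length, while the medians stood apart. The highest ventral striatum value was that of male KO mouse 10, whose library went against its region label, and without it the maximum was 33.3 CPM. The lowest dorsal hippocampus value was that of the choroid-rich library of female WT mouse 23. Without the choroid-rich libraries the minimum was 24.9 CPM. Ventral striatum over dorsal hippocampus gave a log2 fold change of -0.57 (SE 0.14, edgeR adjusted p = 0.0007), 1.49-fold lower, and dorsal hippocampus over amygdala gave 0.49 (SE 0.14, edgeR adjusted p = 0.00634). Dorsal striatum over dorsal hippocampus was called at -0.38 (edgeR adjusted p = 0.0195) and was lost without mouse 11 (adjusted p = 0.0704) or mouse 24 (adjusted p = 0.0518). The amygdala, dorsal striatum and ventral striatum, with means of 28.1, 29.8 and 26.8 CPM, did not differ from each other by this test. Without the libraries whose region markers went against the label, the dorsal and ventral striatum had means of 27.3 and 25.6 CPM. The shallower regions had means of 36.8, 37.7 and 34.3 CPM in cortex, prefrontal cortex and ventral hippocampus, and 0 of their 3 pairs was called by edgeR, with 0 at an unadjusted p under 0.05.

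Slc16a9 encodes MCT9, linked to carnitine and urate transport. It lies on chromosome 10, positions 70245100 to 70285968, plus strand, with 3869 bases of exon. Its deeper-set means were 5.04 CPM (dorsal striatum), 3.93 (amygdala), 3.39 (dorsal hippocampus) and 3.33 (ventral striatum), and neither edgeR nor DESeq2 called any of the 6 pairs. For ventral over dorsal striatum the unadjusted edgeR p was under 0.05 (log2 fold change -0.54, edgeR adjusted p = 0.156). The 5 highest values of the deeper set all sat in choroid-rich libraries: 10.4 and 9.41 CPM in the amygdala of female KO mice 4 and 5, 10.5 in the dorsal hippocampus of female WT mouse 23, and 10.1 and 9.56 in the dorsal striatum of female KO mice 6 and 5. The other 9 amygdala libraries lay between 1.68 and 3.28 CPM. Without the choroid-rich libraries the dorsal striatum was called above the amygdala (0.55, SE 0.18, edgeR adjusted p = 0.0112) and above the dorsal hippocampus (0.64, SE 0.18, edgeR adjusted p = 0.00433); 49.5% and 48.9% of all genes were called in these pairs without those libraries. Without mouse 23 alone, dorsal striatum over dorsal hippocampus was called at 0.74 (edgeR adjusted p = 0.00889). In the cortex 11 of 11 libraries were at or under the floor, and the gene did not pass the filter in the shallower set.

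Bsg, the chaperone of MCT1 and MCT4, lies on chromosome 10, positions 79704491 to 79711969, plus strand, with 1814 bases of exon. The amygdala ranged from 322.5 over a median of 402 to 586 CPM, the dorsal hippocampus from 292 over 359 to 550.5, the dorsal striatum from 236 over 278 to 397, and the ventral striatum from 251.5 over 293 to 316 CPM. The amygdala and the ventral striatum did not overlap: the lowest amygdala library stood above the highest ventral striatum library. Ventral striatum over amygdala gave a log2 fold change of -0.52 (SE 0.08, edgeR adjusted p = 1.6e-06), 1.43-fold lower, and dorsal striatum over amygdala gave -0.48 (SE 0.08). Both parts of the striatum were also below the dorsal hippocampus, by -0.38 (dorsal) and -0.42 (ventral). The dorsal and ventral striatum did not differ by this test (-0.04, SE 0.08), nor did the dorsal hippocampus and the amygdala (-0.10, SE 0.08). The direction of Bsg was thus the reverse of that of Slc16a3, whose product it accompanies to the membrane, in each of the 4 pairs of a striatal over a non-striatal region. The 31 shallower libraries lay between 284 and 408 CPM, and 0 of 3 pairs was called by edgeR, with 0 at an unadjusted p under 0.05.

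Emb, a chaperone of MCT2, lies on chromosome 13, positions 117208536 to 117274415, plus strand, with 6906 bases of exon. Its deeper-set ranges were wide: 25.4 over a median of 32.03 to 45.4 CPM in the amygdala, 9.83 over 20.2 to 59.7 in the dorsal hippocampus, 13.98 over 22.01 to 48.2 in the dorsal striatum and 17.2 over 23.5 to 40.5 in the ventral striatum. With all libraries neither edgeR nor DESeq2 called any of the 6 pairs. For dorsal hippocampus over amygdala the unadjusted edgeR p was under 0.05 (log2 fold change -0.42, edgeR adjusted p = 0.0911). The highest value was again in a choroid-rich library, the dorsal hippocampus of female WT mouse 23. Without the choroid-rich libraries the amygdala was called above the dorsal hippocampus, with a log2 fold change of dorsal hippocampus over amygdala of -0.73 (SE 0.16, edgeR adjusted p = 0.000597), and above the dorsal striatum (-0.49, SE 0.16, edgeR adjusted p = 0.0099). The ventral striatum was then also called above the dorsal hippocampus (0.40, SE 0.15, edgeR adjusted p = 0.028). The shares of all genes called in these 3 pairs were then 36.4%, 49.5% and 51.5%. Without mouse 23 alone, dorsal hippocampus over amygdala was called at -0.60 (edgeR adjusted p = 0.00604). Shallower means were 22.1 ± 5.58 CPM in the cortex (SD, n = 11), 15.99 ± 5.14 in the prefrontal cortex (n = 8) and 25.4 ± 10.3 in the ventral hippocampus (n = 12). Ventral hippocampus over prefrontal cortex was called at 0.66 (SE 0.21, edgeR adjusted p = 0.015), 1.58-fold, and lost without mouse 3 (0.57, adjusted p = 0.0567). Prefrontal cortex over cortex was called at -0.53 (edgeR adjusted p = 0.0499) and lost in 12 alternatives, with adjusted p-values up to 0.16.

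In the shallower set as a whole 5 of 15 tests passed, with 5 genes tested in each pair. They were 2 of 5 for prefrontal cortex over cortex (39.4% of all 10619 genes tested), 2 of 5 for ventral hippocampus over cortex (29.3%) and 1 of 5 for ventral hippocampus over prefrontal cortex (30.9%). The direction of Slc16a1 and that of Slc16a6 in the ventral hippocampus against the cortex were opposite to each other.

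**Figure D3:**
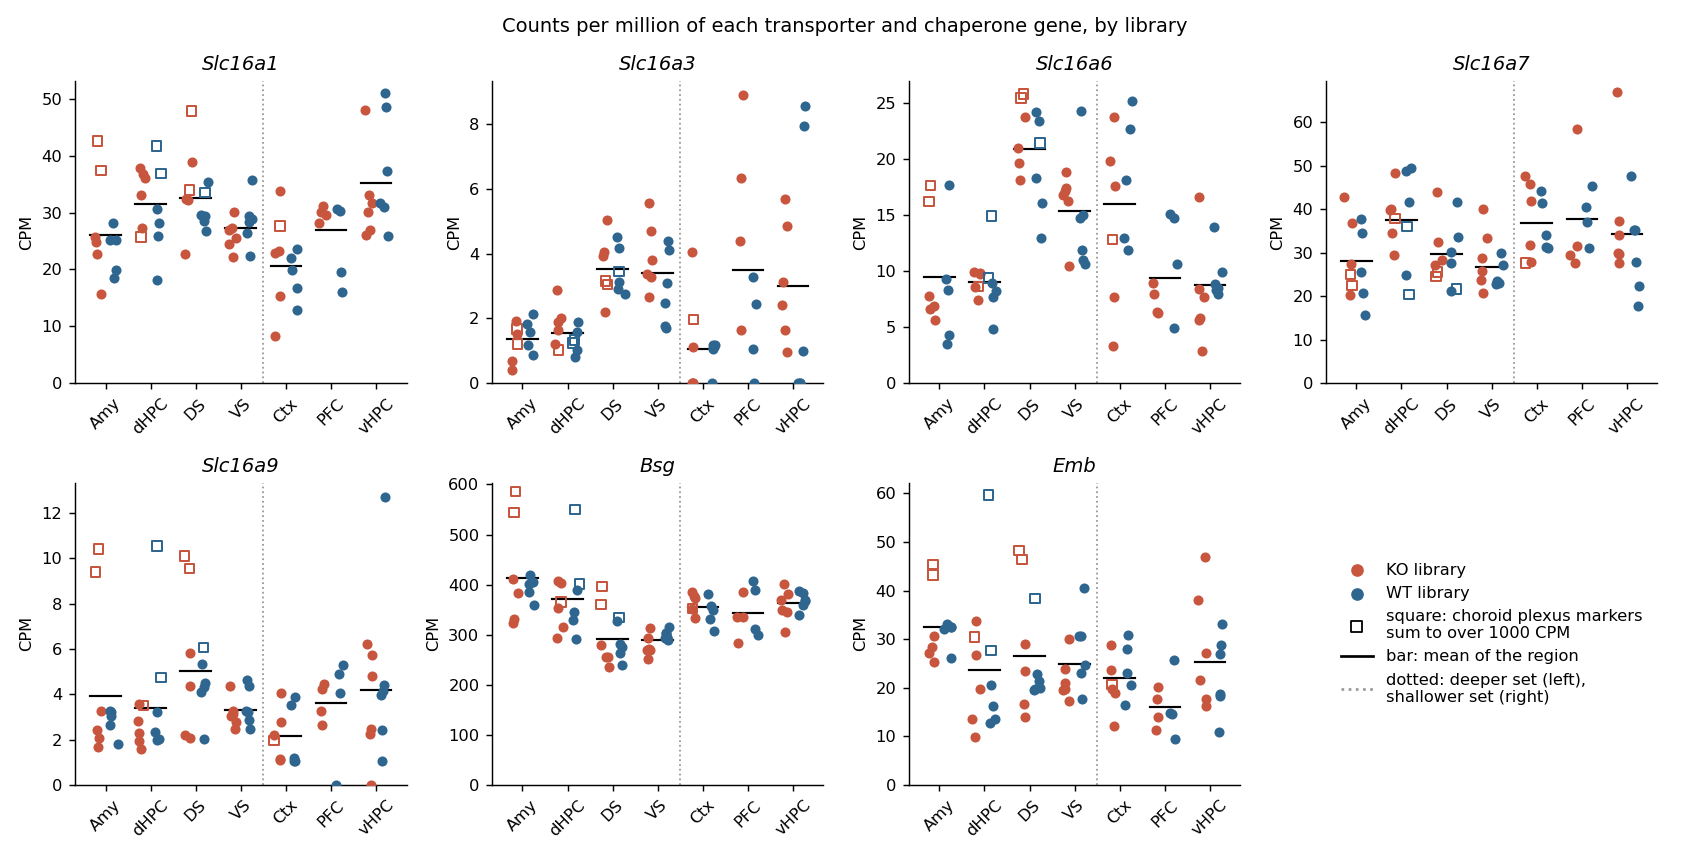
CPM of the 7 genes in each of the 78 libraries, by region, with KO libraries in red, WT libraries in blue, and a bar at the mean of each region; each panel has its own linear axis from 0. Open squares are the 9 libraries in which choroid plexus markers sum to over 1000 CPM; they hold the highest Slc16a9, Bsg and Emb values of the amygdala, the dorsal hippocampus and the dorsal striatum.

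Levels of cell type markers also differed between the regions, in an order that was only partly that of the genes. The 8 oligodendrocyte markers, among them Mbp, summed to a mean of 4311 CPM for the amygdala, 6580 for the dorsal hippocampus, 7055 for the ventral striatum and 11590 for the dorsal striatum. In single deeper libraries their sum ranged from 1050 to 18040 CPM. The 10 endothelial markers, among them Cldn5 and Flt1, summed to 235 CPM for the amygdala, 293.5 for the dorsal hippocampus, 320 for the ventral striatum and 343 for the dorsal striatum. Both sums were higher in the ventral striatum than in the dorsal hippocampus, where Slc16a1 had the higher mean (31.5 against 27.3 CPM). The 8 astrocyte and 6 pericyte markers had the order of Slc16a1 in this pair. They summed to 4465 and 180.1 CPM in the dorsal hippocampus and to 3284 and 176.8 CPM in the ventral striatum. The 6 cortical excitatory neuron markers summed to 1556 CPM in the dorsal hippocampus, 1341 in the amygdala, 680.9 in the dorsal striatum and 376.5 in the ventral striatum. In the same order the means of Slc16a7 were 37.65, 28.1, 29.8 and 26.8 CPM. All markers of these lists had reads in every region, and their part in the regional differences was not tested.

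Across the 47 deeper libraries, after the mean of each group by region, sex and genotype was subtracted, Slc16a1 had a Pearson correlation of 0.71 with the oligodendrocyte sum, 0.70 with the pericyte sum and 0.67 with the endothelial sum. Slc16a7 had -0.63 with the oligodendrocyte sum, 0.53 with the neuron sum and 0.66 with the cortical excitatory sum. Slc16a3 had 0.55 with the striatal projection neuron sum, -0.40 with the astrocyte sum, and 0.00 and 0.05 with the endothelial and the oligodendrocyte sum. Slc16a9, Bsg and Emb had 0.77, 0.69 and 0.67 with the choroid plexus sum, against -0.38 for Slc16a7. Over the 37 libraries left without the choroid-rich ones, in groups of at least 2, these were 0.38 for Slc16a9, 0.12 for Bsg, -0.09 for Emb and -0.30 for Slc16a7. Slc16a1 then had 0.65 with the oligodendrocyte sum and Slc16a7 -0.57. Without the libraries whose region markers went against the label (44 left), Slc16a3 had 0.50 with the striatal projection neuron sum and Slc16a7 0.58 with the cortical excitatory sum. These are descriptions over libraries that share mice, regions and dissection, on log2(CPM + 1), and carry no test. Of the 9 choroid-rich libraries, 7 were among the 3 highest of their region for Slc16a9 and for Emb, 6 for Slc16a1 and for Bsg, 5 for Slc16a6, 1 for Slc16a3 and 0 for Slc16a7.

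**Figure D4:**
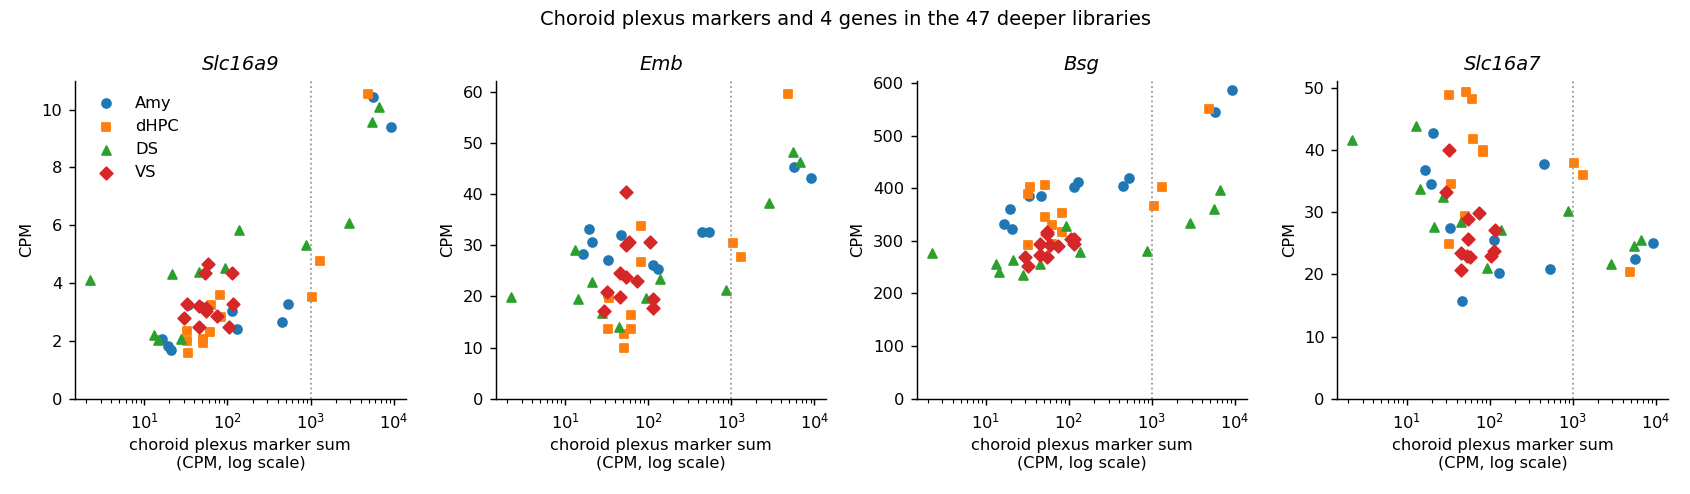
CPM of Slc16a9, Emb, Bsg and Slc16a7 against the summed CPM of 8 choroid plexus markers (log scale) in the 47 libraries of the deeper set, by region; the dotted line is at 1000 CPM. Right of it Slc16a9, Emb and Bsg reach their highest values, up to 10.5, 59.7 and 586 CPM, and Slc16a7 does not.

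The genes with the most similar pattern over the same 47 libraries, by Pearson correlation of log2(CPM + 1) among 11779 genes, were Car2 (0.826), Dazap2 (0.818) and Olfml1 (0.806) for Slc16a1. They were Grm3 (0.904), Foxp1 (0.877) and Jcad (0.875) for Slc16a3. For Slc16a6 they were Rbms1 (0.876), Ldhb (0.827) and Ctnna1 (0.827), and for Slc16a7 Frrs1l (0.897), Sort1 (0.861) and Scn8a (0.851). Slc16a9 was most like Slc4a2 (0.869), Tmem72 (0.862) and Enpp2 (0.861), Bsg was most like Ctsd (0.903), Slc25a39 (0.862) and Aup1 (0.843), and Emb was most like Stk39 (0.79), Cab39l (0.782) and Gas6 (0.779). With the group means subtracted, the first gene of each had 0.777 for Slc16a1, 0.685 for Slc16a3, 0.649 for Slc16a6, 0.865 for Slc16a7, 0.844 for Slc16a9, 0.761 for Bsg and 0.868 for Emb. The correlation was lower by the most for Slc16a6 and Slc16a3 once group means were subtracted. These genes were picked for their correlation, and the libraries share mice and regions. The choroid-rich libraries were included here. For Slc16a9 the Spearman correlations with Slc4a2, Tmem72 and Enpp2 were lower than the Pearson values, at 0.756, 0.735 and 0.74.

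Loss of ACSS2, the contrast the series is about, was not accompanied by a called difference in any of the 7 genes in any region. In edgeR fits of each region with sex as a covariate, 0 of 42 tests passed and 0 had an unadjusted p under 0.05, and DESeq2 gave 0 and 0 as well. Among all genes the share called was 0.00708% (ventral striatum), 0.00689% (dorsal striatum), 0.0069% (dorsal hippocampus), 0.00657% (amygdala), 0.00947% (cortex), 0.00929% (ventral hippocampus) and 0.0925% (prefrontal cortex), so the absence of calls is that of nearly all genes. The KO and WT ranges of CPM overlapped for all 7 genes in all 7 regions. Log2 fold changes lay between -0.58 and 0.51, and 26 of the 42 were above 0.

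In the ventral striatum, with 6 libraries a genotype, Slc16a1 ranged from 22.1 over a median of 26.2 to 30.1 CPM in KO and from 22.3 over 28.6 to 35.8 in WT mice, a log2 fold change of -0.13 (SE 0.11). Slc16a3 ranged from 2.67 over 3.59 to 5.55 CPM in KO and from 1.72 over 2.79 to 4.38 in WT mice (0.41, SE 0.30). Bsg ranged from 251.5 over 271 to 313 CPM in KO and from 290 over 299 to 316 in WT mice (-0.10, SE 0.08). All 3 pairs of ranges overlapped, though 4 of the 6 KO libraries held less Bsg than every WT library. The lowest of these, 251.5 CPM, was that of male KO mouse 10, whose library went against its region label. Without it the lowest Bsg value of the region was 269.5 CPM. Emb had the smallest adjusted p of the 42 tests: it ranged from 17.2 over 20.4 to 30.03 CPM in KO and from 17.8 over 27.6 to 40.5 in WT mice, a log2 fold change of -0.33 (SE 0.18, edgeR adjusted p = 0.651). Slc16a6 (0.17, SE 0.22), Slc16a7 (0.19, SE 0.16) and Slc16a9 (-0.13, SE 0.21) completed the 7. In these libraries the KO mean of the astrocyte marker sum was 3032 ± 599 CPM and the WT mean 3536 ± 480 CPM (SD, n = 6 each). The striatal projection neuron sum ranged from 919.5 to 6134 CPM in the KO and from 384 to 7166 CPM in the WT libraries. The part of either sum in these values was not tested.

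Over the regions, the log2 fold change of KO over WT lay between -0.20 and 0.26 for Slc16a1, -0.07 and 0.29 for Slc16a7, -0.10 and 0.07 for Bsg and -0.33 and 0.30 for Emb, each tested in 7 regions. It lay between -0.58 and 0.21 for Slc16a6 in 6 regions, and between -0.40 and 0.42 for Slc16a3 and -0.57 and 0.51 for Slc16a9 in the 4 deeper regions. The extremes of Slc16a9, 0.51 in the amygdala and -0.57 in the dorsal hippocampus, came in regions where the choroid-rich libraries fall unevenly, 2 KO and 0 WT in the amygdala and 1 KO and 2 WT in the dorsal hippocampus. Without those libraries they were -0.21 (SE 0.27) and 0.02 (SE 0.30). The SE was 0.08 to 0.15 for Bsg and 0.21 to 0.42 for Slc16a9, so smaller differences could be told from 0 for Bsg. The lowest Slc16a6 value, -0.58 (SE 0.41), was in the prefrontal cortex, where the striatal projection neuron sum was 573 to 1656 CPM in the 4 KO and 184 to 322 CPM in the 4 WT libraries; its part in that value was not tested. Without the prefrontal library of female KO mouse 5, whose region markers went against the label, the value was -0.55 (SE 0.43).

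**Figure D5:**
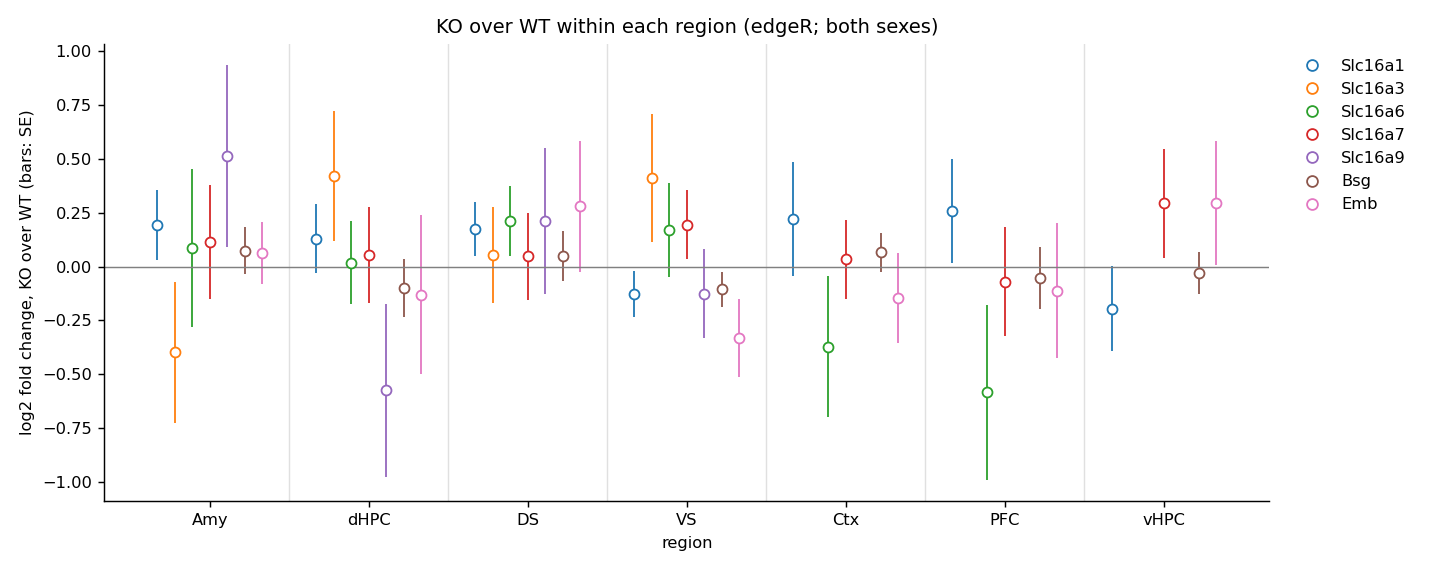
Log2 fold change of KO over WT, with its SE, of each tested gene in the 7 regions, from edgeR fits with sex as a covariate; no point passed the threshold. Points lie between -0.58 and 0.51, and genes below the filter on low counts have no point.

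The KO effect was also set between the sexes in the 6 regions other than the prefrontal cortex. edgeR called 0 of 37 interactions and DESeq2 0, and 0% of all genes were called by edgeR in any of these 6 regions; 6 of the 37 had an unadjusted edgeR p under 0.05, beside 1.33% to 6.63% of all genes in a region. These 6 were singled out after their values were seen. In the ventral striatum Slc16a6 held 16.7, 17.4 and 18.9 CPM in male KO mice and 10.6, 10.96 and 11.9 in male WT mice. In females there it held 10.4, 16.3 and 17.1 CPM in KO and 14.7, 14.96 and 24.2 in WT mice. The log2 interaction, male minus female, was 1.03 (SE 0.34, edgeR adjusted p = 0.943). In the same region Slc16a7 held 25.8, 33.3 and 40.1 CPM in male KO and 22.95, 23.05 and 23.4 in male WT mice. In females it held 20.7, 23.7 and 28.9 CPM in KO and 22.9, 27.2 and 29.9 in WT mice. Its interaction was 0.71 (SE 0.26, edgeR adjusted p = 0.943). The highest male KO value of both genes was that of mouse 10, whose ventral striatum library went against its region label. Without it the interactions were 1.008 (SE 0.37) for Slc16a6 and 0.57 (SE 0.27) for Slc16a7. The 4 others, none called, were Slc16a3 in the dorsal hippocampus (-1.39), Slc16a9 (-1.35) and Emb (-1.34) in the dorsal striatum, and Slc16a7 in the ventral hippocampus (-1.24).

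In the dorsal striatum, female KO mice 5 and 6 were choroid-rich, with choroid plexus sums of 5524 and 6648 CPM. Emb held 48.2 and 46.4 CPM in them and 23.45 in female KO mouse 4, and Slc16a9 held 9.56 and 10.1 against 5.82 CPM. Without the choroid-rich libraries the interactions there were -0.27 (SE 0.46) for Emb and -0.43 (SE 0.70) for Slc16a9, and that of Slc16a3 in the dorsal hippocampus was -1.52 (SE 0.63). The Emb interaction in the dorsal hippocampus was then -1.62 (SE 0.36, edgeR adjusted p = 0.36), against -0.13 (SE 0.77) with all libraries. Without the libraries whose region markers went against the label, the interaction was -1.73 (SE 0.46, edgeR adjusted p = 0.9998) for Emb in the dorsal striatum, -1.14 (SE 0.64) for Slc16a9 there and -1.32 (SE 0.44) for Slc16a7 in the ventral hippocampus.

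Between males and females, which also means between the count tables, edgeR called 0 of 42 tests, and 8 had an unadjusted p under 0.05. DESeq2 called 1, Bsg in the amygdala, where it called 3.89% of all genes. Of all genes edgeR called 0.0425% (ventral striatum), 0.0482% (dorsal striatum), 0.0414% (dorsal hippocampus), 0.0394% (amygdala), 0.104% (cortex), 0.0464% (ventral hippocampus) and 0.042% (prefrontal cortex). In the amygdala 5 of the 7 genes had an unadjusted p under 0.05, all with lower values in males, beside 18.1% of all genes. Slc16a1 there held 25.2, 25.6, 28.2, 37.4 and 42.5 CPM in the 5 female and 15.7 over 21.3 to 25.1 CPM in 6 male libraries. The log2 fold change of males over females was -0.54 (SE 0.16, edgeR adjusted p = 0.153). Bsg held 404, 411, 419.6, 544 and 586 CPM in females and 322.5 to 402 in males (-0.35, SE 0.11, edgeR adjusted p = 0.16). The choroid plexus sum of these libraries was 130 to 9171 CPM in females and 16.5 to 114 CPM in males, and the oligodendrocyte sum had means of 5998 and 2904 CPM. Without the choroid-rich libraries of female KO mice 4 and 5, the values were -0.32 (SE 0.16) for Slc16a1 and -0.17 (SE 0.09) for Bsg, and Slc16a9 went from -1.01 to -0.12.

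The rest of the pathway was followed in 4 lists. Of 11 other Slc16 and sodium-coupled transporters, 7 were tested in the deeper set. For dorsal striatum over amygdala 1 was higher and 3 were lower, with a list median of -0.06 beside 0.01 for all genes, and for ventral striatum over dorsal hippocampus 0 were higher and 3 lower. Slc16a10, an aromatic amino acid transporter, was higher in the dorsal hippocampus than in the amygdala by 2.42 (SE 0.30, edgeR adjusted p = 2.1e-08), with means of 6.28 ± 2.41 CPM (SD, n = 12) and 1.21 ± 0.631 CPM (n = 11). Slc16a11 was lower in the dorsal striatum than in the amygdala (-1.27, SE 0.18). Slc16a5 was at or near 0 in every region.

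Among 12 genes of lactate and pyruvate metabolism, 11 were tested. For dorsal striatum over amygdala 6 were higher and 3 lower, and for dorsal striatum over dorsal hippocampus 6 were higher and 2 lower, with list medians of 0.12 and 0.29 beside 0.01 and 0.02 for all genes. Ldhb, a lactate dehydrogenase subunit that favours lactate use, had means of 673 ± 110 CPM in the dorsal striatum and 356 ± 70.5 CPM in the amygdala, a log2 fold change of 0.94 (SE 0.10, edgeR adjusted p = 2.9e-10). Pfkfb3, a regulator of glycolysis, was higher there by 0.93 (SE 0.08). In the cortex Ldhb, Mpc1 and Mpc2, the latter being the subunits of the mitochondrial pyruvate carrier, exceeded the prefrontal cortex, with changes of prefrontal cortex over cortex of -0.71, -0.81 and -0.70. Ldhb and Slc16a6 thus had the same order of dorsal striatum over amygdala and of cortex over prefrontal cortex.

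Of 10 genes that use acetate or ketone bodies, 10 were tested in the deeper set; 4 were higher and 0 lower for dorsal striatum over amygdala, and 5 were higher and 1 lower for dorsal striatum over dorsal hippocampus. The list medians were 0.09 and 0.22 beside 0.01 and 0.02 for all genes, of which 55.6% and 54.7% were called in about equal numbers each way. Acly, which makes acetyl-CoA from citrate, was higher in the ventral striatum than in the dorsal hippocampus by 1.02 (SE 0.10, edgeR adjusted p = 4.5e-12). For KO over WT, 1 gene of this list was lower in each of the 7 regions, and it was Acss2 itself. No other gene of the 4 lists was called by edgeR for KO over WT. Of 5 genes of glucose transport and glycogen, 1 was higher and 1 lower for dorsal striatum over amygdala; Slc2a1, the glucose transporter of the blood-brain barrier, was the higher (0.52, SE 0.10, edgeR adjusted p = 1.9e-05).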

How the data were processed

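Raw read counts per gene symbol, deposited by the authors as a table per sex, were used for 78 libraries; they are integers and were not normalized. STAR 2.5.2a, SAMtools 1.1, HTSeq 0.6.1, DESeq2, R 4.0.2 and the GRCm38 and mm10 builds are named in the submitters' processing notes, and poly(A) libraries were made from 300 ng of RNA, per the labels' protocols. The strand setting and the annotation are not given in the sources used here. Multi-copy and overlapping genes may therefore be split or merged by the counting.

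Groups came from the sample titles. Each region was fitted with edgeR 4.0.16 (R 4.3.3; TMM factors, filterByExpr with a minimum count of 10 and a minimum total of 15) on sex and genotype, and regions were compared within a set on region and sex by genotype group. P-values were adjusted by Benjamini and Hochberg over all genes tested, at 0.05. DESeq2 1.42.0 was an alternative, as were its size factors, column totals, no filter, each sex alone, the replicate block, leaving out each of the 12 mice, and leaving out the library whose sex-linked genes go against its label. Leaving out choroid-rich libraries, or those whose region markers go against the label, was chosen after seeing the data. The scripts were tested on simulated data.

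The 7 genes, the pathway and marker lists and the tests were chosen with earlier results of these data known. Named were all 7 genes, the pair of regions with the largest called difference per gene and set, at most 4 examples per pathway list and family of comparisons by adjusted p (some of these are not reported here), and the 3 most similar genes. Libraries from separate mice are replicates, while regions of a mouse are not independent. Same-numbered libraries come from the same mouse; the deviations of same-mouse pairs had a mean correlation of 0.045 (69 pairs) against -0.021 between mice (138 pairs). No 2 replicates of a group agreed within sampling noise. Precision is set by the depth, and floors of 3 counts cover counting error only. Positions and exon lengths are from GENCODE M21 (GRCm38), which may differ from the annotation counted on; promoters are from RefSeq (GRCm38.p6), in which 4 of the 7 genes matched.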

Additional observations from a re-analysis of the deposited data

Results flagged for a closer look

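In 12 of the 98 groups of 4 to 6 libraries of 1 genotype and region, the highest or lowest library lay farther from its nearest neighbour than Dixon's 95% limit; chance gives about 1 in 20 groups. Of the 12, 3 were choroid-rich libraries: the dorsal hippocampus of female WT mouse 23 for Slc16a9 (10.5 CPM, others 1.99 to 4.75) and for Emb (59.7 CPM, others 12.7 to 27.6), and the dorsal striatum of male WT mouse 13 for Emb (38.4 CPM, others 19.4 to 22.7). In the ventral striatum, Slc16a6 was lowest among KO libraries in female KO mouse 6 (10.4 CPM, others 16.3 to 18.9) and highest among WT libraries in female WT mouse 24 (24.2 CPM, others 10.6 to 14.96). In the ventral hippocampus, Slc16a1 was high in male KO mouse 2 (48.1 CPM), Slc16a6 in female WT mouse 11 (13.9 CPM), Slc16a7 in female KO mouse 4 (67.0 CPM, others 27.6 to 37.4) and Slc16a9 in male WT mouse 3 (12.7 CPM, from 8 reads). Slc16a7 was high in the prefrontal cortex of female KO mouse 5 (58.6 CPM, others 27.7 to 31.6), a library whose region markers go against its label. Emb was low in the amygdala of male WT mouse 3 (26.2 CPM, others 32.03 to 33.2), and Slc16a3 was at 0 in the cortex of female WT mouse 11, where the others held 1.05 to 1.18 CPM, under the floor.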

How the results depend on the processing

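No member was called for KO over WT or for the interaction in any of the alternatives run. For males over females DESeq2 called 1 test against 0. Between regions of the deeper set 18 tests passed, 16 to 20 when a mouse was left out, 22 without the choroid-rich and 20 without the region-against-label libraries. In the shallower set 5 passed, and 3 to 6 when a mouse was left out, with 3 without mouse 3; the cause was not tested. With the replicate block by mouse, 18 and 4 passed, and it changed no other call than that of Slc16a6 in the prefrontal cortex over cortex. With female libraries alone, KO over WT in the ventral striatum was reversed for Slc16a6 (-0.352) and Slc16a7 (-0.175), and males alone gave 0.70 and 0.55, with fewer libraries in each fit; no value passed the threshold. Of the alternative values of the named fold changes, 292 kept direction and side of the threshold, and beside these 2 reversals 1 lost its call: Emb in the ventral hippocampus over prefrontal cortex gave 0.566 (edgeR adjusted p = 0.0567) without mouse 3. Scalings moved the median of all genes by up to 0.0903. Depth limits Slc16a3 and Slc16a9 in the shallower set.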
